A study of Mus musculus with 19 samples.

Results

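The genes described here carry long-chain fatty acids into the heart muscle cell and oxidise them in its mitochondria. They are 33 listed genes, chosen by name with earlier results of these data known. They are ordered by pathway step, from the membrane carriers to the electron transfer flavoprotein. The acyl-CoA thioesterases and an uncoupling protein come at the end. Of the 33 genes, 30 had at least 1 probe on the Illumina bead array, and these 30 had 55 of its 25697 probes. Acsl1, Acacb and Hadha were matched by no probe name and have no value here. After removal of the dimmest probes 53 member probes were tested, and all 30 genes kept at least 1.

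All arrays came from left ventricular myocardium of male MerCreMer mice, back-crossed to C57Bl6/J and 12 to 20 weeks old, whose Cre recombinase is fused to a mutated estrogen receptor and driven in cardiac muscle by a myosin heavy chain promoter. The control group (5 arrays) was taken at baseline. The day 2 (4 arrays) and day 3 (3 arrays) groups had received 2 and 3 days of tamoxifen free base in peanut oil, 1 mg (40 mg/kg) a day by intraperitoneal injection. The day 10 (3 arrays) and day 28 (4 arrays) groups had received 5 days of tamoxifen and then 5 and 23 further days without it. The labels of these later groups mention a normal diet for those further days, while the protocol gives injection and states 1 diet for all mice, and the protocol is followed here. Every group, control included, carries the transgene, and neither vehicle-treated mice nor tamoxifen-treated mice without Cre are among these samples, so the effects of tamoxifen, of active Cre and of time cannot be told apart. The study's design states that cardiac dysfunction was deepest at day 10 and had recovered by 4 weeks.

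Long-chain fatty acids are the main fuel of the adult heart. They enter the cell through carriers such as Cd36, are activated to acyl-CoA, cross the inner mitochondrial membrane as carnitine esters, and are shortened by repeated rounds of dehydrogenation, hydration, a second dehydrogenation and thiolysis. Malonyl-CoA blocks the entry step, and the genes of the pathway are known targets of the nuclear receptors PPAR and estrogen-related receptor with their coactivator PGC-1.

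Values are log2 of the background-corrected intensity plus an offset of 50, and every difference below is on that scale unless a fold is named. The scale understates changes of dim probes and of probes close to its highest value of 15.8. A gene is represented by its brightest probe, and "fell" or "rose" is used where limma's adjusted p over 19272 probes was under 0.05. Shares of all probes were not computed for counts at an unadjusted p or at 2-fold, so those counts have no background here. The labels number the arrays within a group without naming animals, so the p-values measure the spread between arrays. Cardiomyocyte markers checked the tissue label: Myl2, Myl3, Actc1 and Tnnc1 lay close to the top of the scale in controls, and adipocyte markers averaged between 6.40 and 6.75 in every array, near the median of all probes (6.83). In RNA from whole ventricle, fewer cardiomyocytes and less RNA of a gene per cardiomyocyte cannot be told apart. On the second principal component of all probes, controls 4 and 5 (20.5 and 20.1) stood apart from controls 1 to 3 (1.59 to 4.38). They lay beside the day 10 arrays (19.7 to 24.1) and the day 28 arrays (21.1 to 23.1). The day 2 (-27.7 to -10.4) and day 3 arrays (-48.2 to -45.6) lay below all controls. The members whose call changed with only controls 1 to 3 or only controls 4 and 5 are therefore named below. The choice of controls 4 and 5 alone was made after seeing the data.

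At day 10, 29 of the 30 measured genes had fallen and none had risen by limma's test, nor had any risen at an unadjusted p under 0.05. At adjusted p under 0.05 the background was 18.1% of all tested probes lower and 17.7% higher. As the list was made with earlier results of these data known, this contrast is a description and not independent evidence. The median difference of the 30 genes was -1.34, against -0.03 for all probes, and the range ran from -2.60 (Acot1) to -0.05 (Acad10). In 29 genes the 3 day 10 arrays all lay below the 5 controls, where 18.2% of all probes did so. Of the fallen genes 21 were at least 2-fold lower, and no share of all probes was computed for that threshold. At probe level 49 of the 53 member probes were lower, and among 16 genes with several tested probes, all probes were lower in 13. The exceptions were Slc22a5 (2 of 3 probes lower), Acot2 (1 of 2) and Acad10 (0 of 2).

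Macrophage markers were higher at day 10 in 8 of 8 measured genes, with their summed intensity between 5097 and 13503 in controls and between 36374 and 59339 at day 10. Of 11 measured cardiomyocyte markers 6 were lower and 1, Tpm1, was higher at day 10, where 18.1% of all probes were lower and 17.7% higher. The summed intensity of the 11 markers went from between 301320 and 352879 to between 258471 and 286368. The part of these changes in the fall of the fatty acid genes was not tested. With each array centred on the mean of the cardiomyocyte markers, the median difference of the 30 genes was -0.82 while that of all probes was 0.49. There 24 genes remained called lower and 1, Acad10, was called higher. Of all probes 70.2% were called in either direction with that centring and 35.8% without it. The difference of Acad10 (0.47) was close to the median of all probes. Cd36, Fabp3, Cpt1a, Acad9 and Acaa2 were not called with that centring. With each array centred on 5 ubiquitous genes, all of which were themselves higher at day 10, the median of the 30 genes was -2.35 and that of all probes -1.04.

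**Figure D1:**
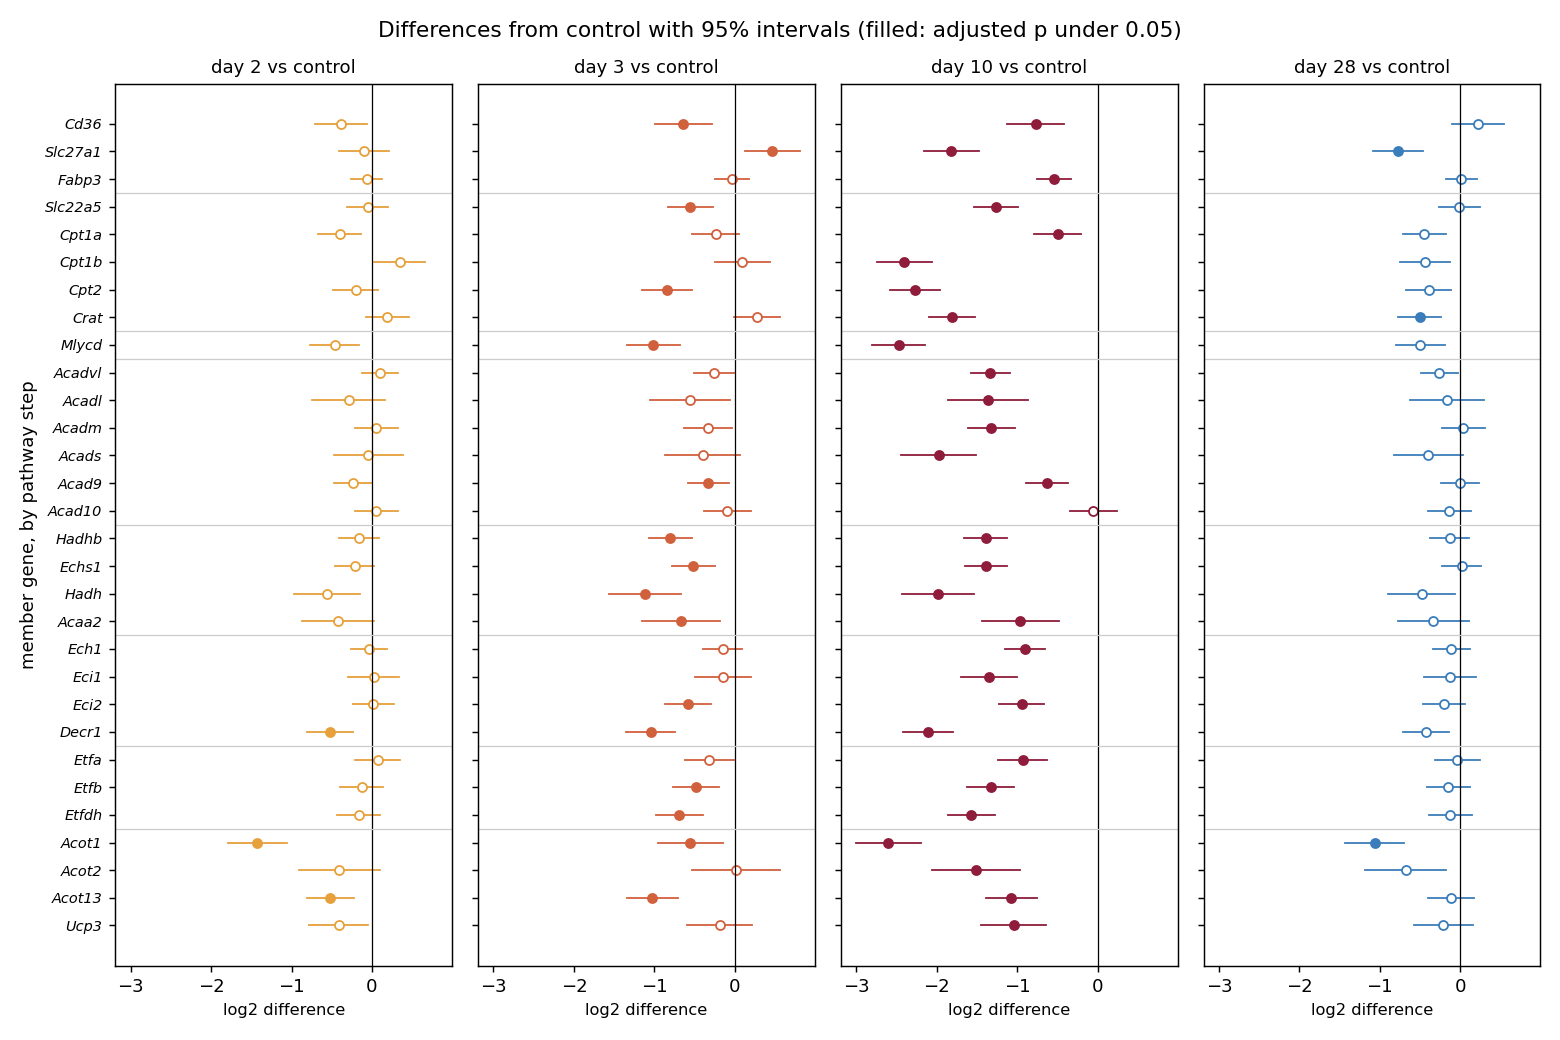
Difference from control on the log2 scale (horizontal axis) of the 30 measured genes (vertical axis, by pathway step, grey lines between steps) at day 2, 3, 10 and 28. Points are differences of group means, bars are 95% intervals and filled points have adjusted p under 0.05. At day 10 all points but Acad10 are filled and lie left of 0, and at day 28 only Slc27a1, Crat and Acot1 are filled.

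At the earlier times the set moved less. At day 2, 3 of 30 genes fell (Decr1, Acot1 and Acot13) and none rose by limma's test, with a median of -0.16 (8 lower and 1 higher at an unadjusted p under 0.05). At adjusted p under 0.05 the background was 3.24% of all probes lower and 3.39% higher. At day 3, 15 genes fell and 1, Slc27a1, rose, with a median of -0.44, beside 14.3% of all probes lower and 14.1% higher. With the cardiomyocyte-marker centring the day 3 counts were 7 lower and 2 higher, beside 28.9% of all probes called in either direction. The day 3 falls of Cd36, Slc22a5, Acad9, Echs1, Acaa2, Eci2, Etfb and Acot1 were not called with that centring. Day 2 was uneven between arrays: the median deviation of the 30 genes from the control mean was -0.43 in replicate 3 and 0.07 in replicate 4, a wider span than that of the 5 controls (-0.14 to 0.10). The 3 day 3 arrays lay between -0.47 and -0.32, and the 3 day 10 arrays between -1.46 and -1.25.

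**Figure D2:**
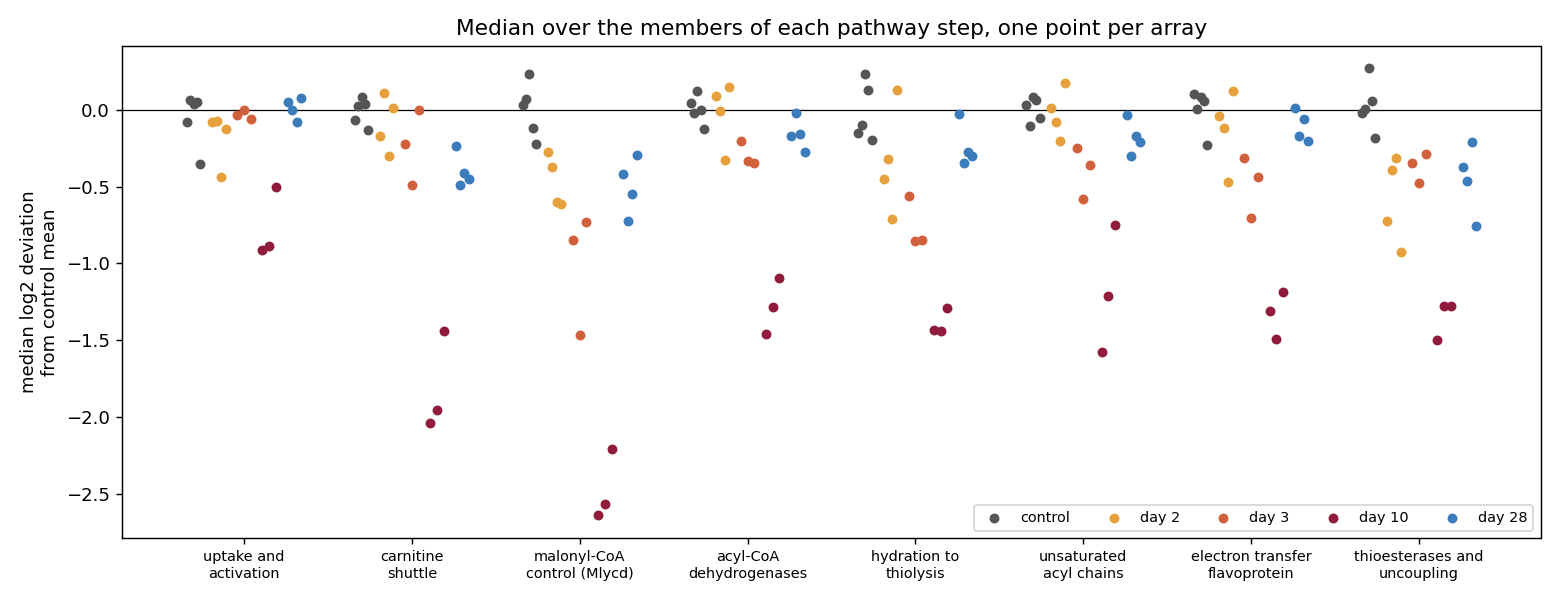
Median log2 deviation from the control mean (vertical axis) over the measured members of each pathway step (horizontal axis), 1 point per array, coloured by group. Malonyl-CoA control holds Mlycd alone. In every step the 3 day 10 points are the lowest, and for Mlycd they lie between -2.64 and -2.21.

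Of the carriers that bring fatty acids to the cell, 3 were measured and all 3 fell at day 10, with a median of -0.77. Slc27a1, which encodes the transport protein FATP1, had values of 9.61, 9.73, 10.01, 9.68 and 9.32 in controls, 9.88, 9.35, 9.23 and 9.83 at day 2, and 10.13, 9.97 and 10.31 at day 3. At day 10 it had 7.92, 7.78 and 7.86, and at day 28 9.02, 8.69, 8.71 and 9.16. The day 3 arrays overlapped the highest control, and all day 10 and day 28 arrays lay below every control. Slc27a1 rose by 0.47 ± 0.16 (SE) at day 3 (adjusted p = 0.0356) and then lay 3.52-fold below control at day 10 (adjusted p = 6.29e-09). The day 3 rise was not called with controls 1 to 3 alone (0.35, adjusted p = 0.157), with ubiquitous-gene centring (0.26, adjusted p = 0.309), or without control replicate 1 (adjusted p = 0.0614), control replicate 5 (0.0948), day 3 replicate 1 (0.0754) or day 3 replicate 3 (0.164).

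Cd36, the fatty acid translocase of the plasma membrane, fell by 0.64 ± 0.17 (SE) at day 3 (adjusted p = 0.00583) and lay 1.70-fold below control at day 10 (adjusted p = 0.000819). Its values were 7.51, 7.64, 7.68, 8.08 and 7.29 in controls, 6.92, 7.21 and 6.87 at day 3, and 6.73, 6.75 and 7.14 at day 10. Both treated groups lay below every control, and day 10 did not differ from day 3 beyond their spread (-0.13 ± 0.19 SE, adjusted p = 0.68). The Cd36 probe was dim, at the 63.8th percentile of mean intensity of all probes. Fabp3, the heart fatty acid binding protein that carries fatty acids through the cytosol, had 15.63, 15.78, 15.70, 15.75 and 15.64 in controls and 15.02, 15.24 and 15.21 at day 10. These levels sit against the top of the scale, where differences are compressed. Fabp3 still fell by 0.54 ± 0.10 (SE; adjusted p = 0.000154) and showed no call at day 2 (-0.07) or day 3 (-0.03).

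The carnitine shuttle moves acyl groups across the inner mitochondrial membrane, and all 5 of its measured members fell at day 10, with a median of -1.81. Cpt1b, the muscle isoform of the entry enzyme carnitine palmitoyltransferase 1, had 13.48, 13.52, 13.50, 13.11 and 12.77 in controls and 13.53, 13.73, 13.47 and 13.74 at day 2. It had 13.32, 13.38 and 13.42 at day 3, 10.48, 11.01 and 11.12 at day 10, and 13.06, 12.75, 12.70 and 12.82 at day 28. The day 10 arrays lay more than 1 log2 unit below all others, and each of the other groups overlapped the controls. Cpt1b was 5.29-fold lower at day 10 than in control (-2.40 ± 0.17 SE, adjusted p = 1.27e-10) and 5.65-fold lower than at day 3 (adjusted p = 7.93e-10), with no call at day 2 (0.34) or day 3 (0.09). Against controls 4 and 5 alone the day 2 arrays were called higher (0.68, adjusted p = 0.0143). Crat, carnitine acetyltransferase, which buffers acetyl-CoA as acetylcarnitine, followed a like course: differences were 0.19 at day 2, 0.28 at day 3 and -1.81 ± 0.14 (SE) at day 10 (3.51-fold lower, adjusted p = 6.58e-10). The day 3 difference of Crat, uncalled with all controls, was called higher with controls 4 and 5 alone (0.49, adjusted p = 0.0335) and with cardiomyocyte-marker centring (0.48, adjusted p = 0.00703). Crat values were 11.75, 11.62, 11.85, 11.43 and 11.34 in controls and 9.56, 9.65 and 10.16 at day 10.

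Cpt2, the palmitoyltransferase of the inner membrane that reforms acyl-CoA inside the mitochondrion, had already fallen at day 3. Its values were 12.67, 12.76, 12.82, 12.83 and 12.61 in controls, 12.02, 11.56 and 12.10 at day 3, 10.50, 10.32 and 10.57 at day 10, and 12.50, 12.25, 12.33 and 12.29 at day 28. Day 3 and day 10 each lay below all controls without overlapping each other. The differences were -0.84 ± 0.15 (SE; adjusted p = 0.00011) at day 3 and -2.27 ± 0.15 (SE; 4.83-fold, adjusted p = 7.02e-11) at day 10. Slc22a5, the plasma membrane carnitine transporter OCTN2, fell by 0.55 ± 0.13 (SE; adjusted p = 0.00269) at day 3 and by 1.26 ± 0.13 (SE; adjusted p = 6.56e-08) at day 10. Its 3 day 10 values of 9.06, 9.07 and 9.06 lay far below the controls of 10.19 to 10.46. With the mean over its 3 probes, the day 3 fall of Slc22a5 was not called (-0.29, adjusted p = 0.0649).

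Cpt1a encodes the isoform of the entry enzyme that is typical of liver. Its single probe was dim, at the 38.1st percentile of mean intensity, with 6.69, 7.04, 6.88, 6.90 and 6.77 in controls and 6.57, 6.33 and 6.17 at day 10. Its fall of 0.50 ± 0.14 (SE) at day 10 had adjusted p = 0.00641 and was not called without day 10 replicate 3 (adjusted p = 0.0562) or with controls 4 and 5 alone (-0.48, adjusted p = 0.0543). At day 28 Cpt1a did not differ beyond the spread from day 10 (0.05 ± 0.15 SE, adjusted p = 0.857), and against control its difference was -0.45 (adjusted p = 0.0745). The difference between both isoforms, Cpt1a minus Cpt1b within an array, moved by 1.91 from control to day 10, from -6.42 ± 0.32 (SD, n = 5) to -4.51 ± 0.54 (SD, n = 3). A 2-sided exact permutation test over arrays gave p = 0.0179 there, the smallest that 56 arrangements allow, and 0.0357 after adjustment over 4 times. Since Cpt1b fell by 2.40 and Cpt1a by 0.50, this shift mostly restates the fall of Cpt1b, and the dim Cpt1a probe has little room to fall on this scale. The same quantity moved the other way at day 2, by -0.74 (exact permutation p = 0.0159, adjusted 0.0357), and by -0.33 at day 3 (exact permutation p = 0.196) and -0.01 at day 28 (exact permutation p = 0.929). With controls 1 to 3 alone the day 2 and day 10 values were -0.53 and 2.12, with exact permutation p = 0.0286 (adjusted 0.114) and 0.1 (adjusted 0.2). These are the smallest p that 35 and 20 arrangements allow, so the adjusted values there say nothing about stability.

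Mlycd, malonyl-CoA decarboxylase, removes the malonyl-CoA that inhibits carnitine palmitoyltransferase 1, and it was the only measured gene of that control step. It had 11.71, 11.75, 11.91, 11.56 and 11.46 in controls, 11.41, 11.31, 11.08 and 11.06 at day 2, and 10.83, 10.21 and 10.95 at day 3. It had 9.04, 9.11 and 9.47 at day 10 and 11.26, 10.95, 11.13 and 11.38 at day 28. Each treated group lay below all controls, and the day 2 and day 28 arrays overlapped each other. Differences were -0.46 at day 2 (adjusted p = 0.059), -1.01 ± 0.16 (SE) at day 3 (adjusted p = 2.73e-05) and -2.47 ± 0.16 (SE) at day 10, a level 5.55-fold below control (adjusted p = 5.35e-11). The day 2 difference was called with array weights (adjusted p = 0.0479) and without background correction (-0.45, adjusted p = 0.0434).

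**Figure D3:**
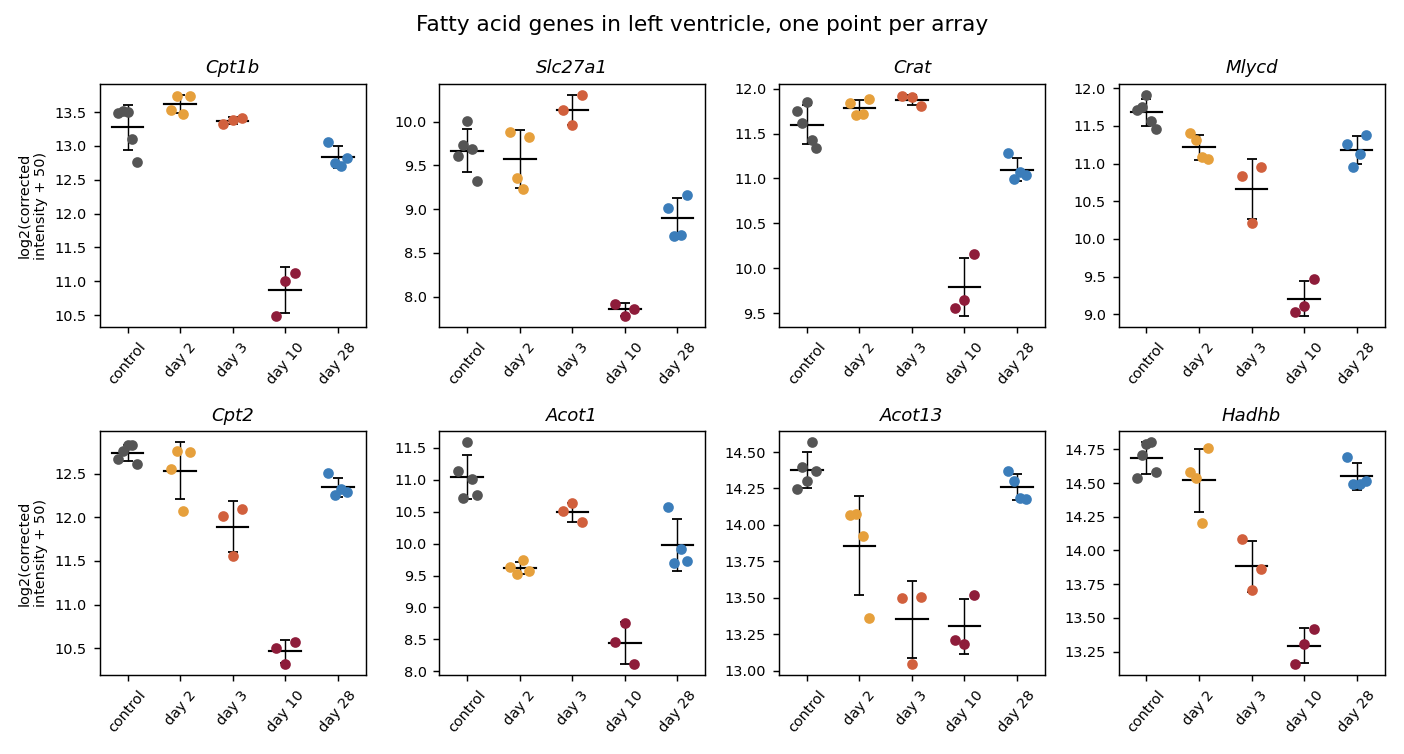
Level of 8 genes on log2(corrected intensity + 50) (vertical axes, each with its own range) in the 5 groups (horizontal axes). Points are arrays, horizontal lines are group means and error bars are 1 SD. Cpt1b, Slc27a1 and Crat drop at day 10 and not before it, whereas Mlycd, Cpt2 and Hadhb are already lower at day 3, and the day 3 and day 10 points of Acot13 overlap.

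The acyl-CoA dehydrogenases take the first step of each round of oxidation and differ in the chain length they prefer. Of 6 measured members 5 fell at day 10, with a median of -1.33. The very long, long, medium and short chain enzymes Acadvl, Acadl, Acadm and Acads were 2.52-fold (adjusted p = 5.32e-09), 2.56-fold (adjusted p = 6.88e-05), 2.50-fold (adjusted p = 8.01e-08) and 3.94-fold (adjusted p = 1.8e-07) below control. Acads had 10.96, 10.64, 11.49, 11.37 and 10.90 in controls and 8.34, 9.28 and 9.67 at day 10, the widest spread among the members' day 10 groups (SD 0.69), yet without overlap. Acadm had 14.97, 15.02, 15.05, 15.01 and 14.79 in controls and 13.55, 13.57 and 13.82 at day 10. At day 3 none of these 4 genes was called, with differences between -0.56 (Acadl, adjusted p = 0.0897) and -0.26 (Acadvl, adjusted p = 0.111). These day 3 values rest on the brightest probe: 2 of 3 probes of Acadl and 1 of 2 of Acadm were called lower, and the mean over its probes was called for Acadl (-0.69, adjusted p = 0.00179). With array weights all 4 genes were called lower at day 3, from -0.78 (Acadl, adjusted p = 0.00114) to -0.35 (Acadm, adjusted p = 0.0168). Acad9, which is also an assembly factor of respiratory complex I, fell by 0.63 ± 0.12 (SE; adjusted p = 0.000243) at day 10. Its day 3 difference of -0.33 had adjusted p = 0.0497 and lost the call in every setting that left out any control, with adjusted p = 0.11 for controls 1 to 3 alone and 0.129 for controls 4 and 5 alone. Acad10, a less studied member of the family, had 7.32, 7.14, 7.16, 6.87 and 7.22 in controls and 7.02, 7.35 and 6.89 at day 10. Those groups overlapped (-0.05 ± 0.14 SE, adjusted p = 0.819), and its brightest probe was at the 58th percentile of mean intensity.

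The promoter windows of 3 members are shown because each holds the letters AGGTCA, the hexamer that nuclear receptors of the PPAR and estrogen-related receptor families are known to bind, on the gene's own strand. They run 250 bases before to 50 after the annotated start, 5′ to 3′, with the motif in capitals, and come from RefSeq (GRCm38.p6).
Acadvl, chr11:70015379-70015678, reverse strand: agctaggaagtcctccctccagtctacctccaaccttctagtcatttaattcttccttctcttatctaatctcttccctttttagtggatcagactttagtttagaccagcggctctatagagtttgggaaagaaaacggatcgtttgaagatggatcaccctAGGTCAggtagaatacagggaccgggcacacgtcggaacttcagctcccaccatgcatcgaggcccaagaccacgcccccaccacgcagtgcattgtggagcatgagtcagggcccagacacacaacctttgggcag
Echs1, chr7:140116372-140116671, reverse strand: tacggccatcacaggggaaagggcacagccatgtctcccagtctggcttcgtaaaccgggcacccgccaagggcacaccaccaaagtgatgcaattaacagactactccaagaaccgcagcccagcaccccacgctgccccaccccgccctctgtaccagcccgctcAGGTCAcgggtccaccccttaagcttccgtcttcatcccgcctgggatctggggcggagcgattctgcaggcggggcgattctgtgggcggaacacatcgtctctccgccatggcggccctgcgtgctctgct
Ucp3, chr7:100472741-100473040, forward strand: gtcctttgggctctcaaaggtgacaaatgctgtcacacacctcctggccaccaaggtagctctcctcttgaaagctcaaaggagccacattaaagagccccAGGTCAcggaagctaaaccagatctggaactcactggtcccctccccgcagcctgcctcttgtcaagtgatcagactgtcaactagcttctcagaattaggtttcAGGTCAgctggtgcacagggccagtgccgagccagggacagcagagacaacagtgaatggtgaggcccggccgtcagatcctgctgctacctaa
Of the 33 members, 27 had a window in that table. The hexamer, searched on both strands, was present in 7 of 27 members (Cd36, Cpt1a, Acacb, Acadvl, Acadm, Echs1 and Ucp3) and in 23.3% of the members' 30 windows, beside 16.3% of all 32851 windows. In Acadvl it starts 87 bases before the start, in Echs1 83 bases, and in Ucp3 149 and 44 bases. The longer motifs TCAAGGTCA, which contains the hexamer, and the direct repeat of AGGTCA with 1 base between the copies were in 0 of 27 members, and in 0.423% and 0.0396% of all windows. Of the 6 measured members with the hexamer, all fell at day 10, as did members without it such as Mlycd, Cpt2 and Acot1.

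The steps from hydration to thiolysis are shared between the trifunctional protein of the inner membrane and soluble matrix enzymes. All 4 measured genes fell, both at day 3 (median -0.74) and at day 10 (median -1.39). Hadhb, the thiolase subunit of the trifunctional protein, had 14.54, 14.70, 14.79, 14.80 and 14.58 in controls, 14.08, 13.71 and 13.86 at day 3, 13.16, 13.31 and 13.42 at day 10, and 14.70, 14.49, 14.49 and 14.51 at day 28. The day 3 and day 10 arrays formed separate steps below the controls. Hadhb fell by 0.80 ± 0.13 (SE; adjusted p = 4.1e-05) at day 3 and by 1.39 ± 0.13 (SE; 2.62-fold, adjusted p = 1.04e-08) at day 10. Echs1, the short chain enoyl-CoA hydratase whose promoter window is printed above, fell by 0.52 ± 0.13 (SE; adjusted p = 0.00312) and 1.39 ± 0.13 (SE; adjusted p = 7.64e-09) at those times. Hadh, the hydroxyacyl-CoA dehydrogenase of the matrix, had 9.16, 9.37, 9.85, 9.52 and 8.97 in controls, 8.32, 8.26 and 8.19 at day 3 and 7.23, 7.41 and 7.54 at day 10. It fell by 1.12 ± 0.22 (SE; adjusted p = 0.000326) and then by 1.98 ± 0.22 (SE; 3.95-fold, adjusted p = 1.05e-07). These values rest on its brightest probe: 1 of 2 probes of Hadh was called lower at day 3, and 2 of 2 at day 10. Acaa2, the matrix thiolase, fell by 0.67 at day 3 (adjusted p = 0.0327) and 0.96 at day 10 (adjusted p = 0.00194). The day 3 call of Acaa2 was lost in 8 settings, among them controls 1 to 3 alone (adjusted p = 0.0862), and without control replicate 3 (0.082), control replicate 4 (0.0883), day 3 replicate 2 (0.0961) or day 3 replicate 3 (0.139). With all arrays each of its 4 probes was called lower at day 3.

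Unsaturated chains need auxiliary isomerases and a reductase, and all 4 genes of this step fell at day 10, with a median of -1.14. Decr1, the 2,4-dienoyl-CoA reductase of mitochondria, had 9.96, 9.64, 9.92, 10.04 and 9.71 in controls, 9.57, 9.33, 8.86 and 9.56 at day 2, 8.91, 8.75 and 8.75 at day 3, and 7.66, 7.69 and 7.89 at day 10. No array of day 2, day 3 or day 10 reached the lowest control. It fell by 0.52 ± 0.14 (SE; adjusted p = 0.0208) at day 2, by 1.05 ± 0.15 (SE; adjusted p = 7.69e-06) at day 3, and lay 4.30-fold below control at day 10 (adjusted p = 1.9e-10). The day 2 call was lost without control replicate 4 (-0.48, adjusted p = 0.0588) or day 2 replicate 3 (-0.37, adjusted p = 0.114), with controls 1 to 3 alone (adjusted p = 0.0759) and with controls 4 and 5 alone (adjusted p = 0.0639). The enoyl-CoA isomerase Eci1 differed by -0.15 at day 3 and by -1.35 ± 0.17 (SE; adjusted p = 6.31e-07) at day 10, with day 10 values of 11.77, 12.13 and 12.86 below controls of 13.49 to 13.70. Eci2, a related isomerase, had instead fallen by 0.58 (adjusted p = 0.0019) at day 3, and by 0.94 (adjusted p = 4.96e-06) at day 10. Ech1, a dienoyl-CoA isomerase, fell by 0.90 (adjusted p = 1.59e-06) at day 10 with no call at day 3 (-0.15).

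Electrons from the acyl-CoA dehydrogenases pass through the electron transfer flavoprotein, encoded by Etfa and Etfb, to its ubiquinone oxidoreductase Etfdh. All 3 fell at day 10, by 0.93 (adjusted p = 1.64e-05), 1.33 (adjusted p = 5.84e-08) and 1.57 (adjusted p = 5.1e-09). Etfdh had 13.51, 13.53, 13.70, 13.61 and 13.25 in controls, 13.01, 12.62 and 12.87 at day 3, and 11.91, 11.93 and 12.01 at day 10, with no overlap between any of these groups. Etfdh and Etfb had fallen at day 3 (-0.69, adjusted p = 0.000509, and -0.48, adjusted p = 0.0109), and Etfa was not called by its brightest probe (-0.32, adjusted p = 0.117). Of its 4 probes 2 were lower at day 3, and Etfa was called with the mean over its probes (-0.45, adjusted p = 0.0311), with array weights (adjusted p = 0.0104) and with ubiquitous-gene centring (adjusted p = 0.0414). Without day 3 replicate 2 the day 3 fall of Etfb was not called (-0.37, adjusted p = 0.0955).

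Acyl-CoA thioesterases release free fatty acids from acyl-CoA, and Ucp3 is an uncoupling protein of muscle mitochondria. Acot1, the cytosolic thioesterase, and Acot2, its mitochondrial relative, are neighbours on chromosome 12, 15624 bases apart, with closely alike coding sequences, so part of a probe's signal may belong to the other gene, which was not tested. Their promoter windows are shown because both genes fell at day 10 but differed in course before it. Both come from RefSeq (GRCm38.p6) and hold no AGGTCA, so neither has capitals.
Acot1, chr12:84009252-84009551, forward strand: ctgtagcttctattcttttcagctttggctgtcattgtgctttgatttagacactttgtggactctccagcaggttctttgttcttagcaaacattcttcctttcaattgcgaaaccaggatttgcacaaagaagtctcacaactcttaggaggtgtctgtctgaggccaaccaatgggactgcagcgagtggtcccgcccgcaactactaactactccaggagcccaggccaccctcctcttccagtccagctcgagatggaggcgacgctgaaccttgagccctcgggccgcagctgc
Acot2, chr12:83987611-83987910, forward strand: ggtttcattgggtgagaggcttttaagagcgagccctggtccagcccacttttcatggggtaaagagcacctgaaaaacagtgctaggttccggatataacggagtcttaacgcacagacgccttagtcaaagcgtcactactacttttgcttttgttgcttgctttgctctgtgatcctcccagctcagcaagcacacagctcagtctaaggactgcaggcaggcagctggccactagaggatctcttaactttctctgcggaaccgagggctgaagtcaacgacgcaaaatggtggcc
Acot1 had 11.13, 10.72, 11.59, 11.02 and 10.76 in controls, 9.64, 9.52, 9.75 and 9.57 at day 2, and 10.51, 10.64 and 10.33 at day 3. It had 8.46, 8.76 and 8.11 at day 10 and 10.57, 9.70, 9.91 and 9.73 at day 28. Every treated array lay below every control, and the day 3 arrays lay above all day 2 and all day 10 arrays. Acot1 fell by 1.43 ± 0.18 (SE; 2.69-fold, adjusted p = 2.54e-05) at day 2, rose by 0.87 ± 0.20 (SE; adjusted p = 0.00325) from day 2 to day 3, and fell by 2.05 ± 0.22 (SE; adjusted p = 1.28e-07) from day 3 to day 10, when it was 6.06-fold below control (adjusted p = 3.74e-10). Its second probe was also lower at day 10 (-1.57). The day 3 difference of Acot1 from control was called with all controls, and this call was lost in 7 settings. Among them were controls 4 and 5 alone (-0.40, adjusted p = 0.222), an offset of 16 (adjusted p = 0.0574) and cardiomyocyte-marker centring (0.21). The call was also lost without control replicate 1 (0.0621) or 3 (0.103), and without day 3 replicate 1 (0.0699) or 3 (0.142).

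Acot2 differed by -0.41 at day 2 and 0.01 at day 3, both uncalled, and by -1.51 ± 0.27 (SE; adjusted p = 6.28e-05) at day 10. Its values were 9.07, 8.74, 8.88, 8.89 and 8.15 in controls and 6.91, 7.38 and 7.43 at day 10, and its second tested probe differed by -0.25 with no call. Acot13, a smaller thioesterase of mitochondria and cytosol, had 14.25, 14.40, 14.30, 14.57 and 14.37 in controls, 14.07, 14.07, 13.93 and 13.36 at day 2, 13.50, 13.05 and 13.51 at day 3, 13.21, 13.18 and 13.52 at day 10, and 14.37, 14.30, 14.19 and 14.18 at day 28. The day 3 and day 10 arrays overlapped each other, and both groups lay below all controls. Acot13 fell by 0.52 ± 0.14 (SE; adjusted p = 0.0254) at day 2, by 1.02 ± 0.15 (SE; adjusted p = 1.38e-05) at day 3 and by 1.07 ± 0.15 (SE; adjusted p = 4.21e-06) at day 10, and day 10 against day 3 gave -0.05 ± 0.17 (SE; adjusted p = 0.882). Its day 2 call was lost without control replicate 4 (adjusted p = 0.0708) or day 2 replicate 4 (-0.35, adjusted p = 0.127), and with controls 1 to 3 alone (adjusted p = 0.139). Ucp3 had 7.26, 7.97, 8.05, 7.36 and 7.56 in controls and 6.58, 6.81 and 6.41 at day 10, a fall of 1.04 ± 0.19 (SE; adjusted p = 0.000119), from a dim probe at the 62.8th percentile of mean intensity.

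The genes differed in when they fell, as the direct comparisons of consecutive times show. From day 2 to day 3, 9 of 30 genes fell and 2 rose (Slc27a1 and Acot1), where 10% and 8.74% of all probes did so. The 9 were Slc22a5, Cpt2, Mlycd, Acadvl, Hadhb, Eci2, Decr1, Etfdh and Acot13. Without day 3 replicate 2 the counts were 2 lower and 2 higher, without day 2 replicate 1 they were 5 and 2, and without day 2 replicate 2 they were 6 and 1. The share of all probes called in either direction was 11.6%, 14.8% and 14.8% in those runs, and 18.7% with all arrays. From day 3 to day 10, 23 of 30 genes fell and none rose by limma's test, with a median of -0.86. By the same test 15.4% of all probes were lower and 16% higher. At an unadjusted p under 0.05, 25 genes were lower and 0 higher. Cpt1b (-2.50), Slc27a1 (-2.28), Crat (-2.09) and Acot1 (-2.05) had the largest of these falls. The 7 genes not called from day 3 to day 10 were Cd36, Cpt1a, Acad9, Acad10, Acaa2, Eci2 and Acot13. The day 3 arrays enter both comparisons, so they are not independent of each other.

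At day 28, 3 of 30 genes were below control, Slc27a1, Crat and Acot1, and none was above it by limma's test, with a median of -0.18. At an unadjusted p under 0.05, 11 were lower and 0 higher, and no share of all probes was computed at that threshold. At adjusted p under 0.05 the background was 0.69% of all probes lower and 1.11% higher, to be set beside the 3 genes and not the 11. Acot1 lay 2.09-fold (-1.07 ± 0.18 SE, adjusted p = 0.00171) and Slc27a1 1.71-fold (-0.78 ± 0.15 SE, adjusted p = 0.0078) below control, each with all 4 arrays below all controls. Crat had 11.29, 11.00, 11.07 and 11.04 at day 28, below its lowest control of 11.34 (-0.50 ± 0.13 SE, adjusted p = 0.0451). The 95% interval of the difference lay within 1 log2 unit of 0 in 27 of 30 genes, for example from -0.27 to 0.24 in Slc22a5 and from -0.23 to 0.31 in Acadm. These intervals also leave room for remaining differences: Mlycd ran from -0.80 to -0.19 and Cpt1b from -0.76 to -0.13 without passing the threshold.

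The choice of controls bears on the day 28 results. With controls 1 to 3 alone 5 genes were lower, Cpt1b (-0.67, adjusted p = 0.00434) and Mlycd (-0.61, adjusted p = 0.0205) being added, and the same number was reached without control replicate 5. The share of all probes called moved with the controls as well. It was 1.8% with all 5 controls, 9.72% with controls 1 to 3 alone, 4.01% without control replicate 5 and 0.202% with controls 4 and 5 alone. With controls 4 and 5 alone none of the 30 was called by limma (4 were lower at an unadjusted p under 0.05), and Slc27a1 (-0.61, adjusted p = 0.428), Crat (-0.29, adjusted p = 0.782) and Acot1 (-0.91, adjusted p = 0.106) kept their direction. In Cpt1b the day 28 arrays (12.70 to 13.06) lay below controls 1 to 4 and on both sides of control 5 (12.77). The call of Crat was lost without control replicate 1 (adjusted p = 0.142), 2 (0.0963) or 3 (0.152), and without day 28 replicate 2 (0.138), 3 (0.129) or 4 (0.127). Of its 3 probes 1 was called lower at day 28, and the mean over its probes was not called (-0.35, adjusted p = 0.141). The Crat call was also lost with an offset of 16 (adjusted p = 0.0894), without the filter (0.0513), with the compared groups alone (0.0662) and with cardiomyocyte-marker centring (0.15). With the cardiomyocyte-marker centring the median of the 30 genes at day 28 changed sign, to 0.077. That centring also moved the median of all probes, from -0.008 to 0.25.

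From day 10 to day 28, 27 of 30 genes rose and none fell by limma's test (28 and 0 at an unadjusted p under 0.05), with a median of 1.19, where 15% of all probes rose and 15% fell. Mlycd (1.98 ± 0.17 SE, adjusted p = 5.17e-09), Cpt1b (1.96 ± 0.17 SE, adjusted p = 8.68e-09), Cpt2 (1.88 ± 0.16 SE, adjusted p = 4.1e-09) and Decr1 (1.68 ± 0.16 SE, adjusted p = 1.75e-08) had the largest rises. All 4 day 28 arrays lay above all 3 day 10 arrays in 27 genes, Acaa2 included and Acot2 not, beside 19.5% of all probes. Cpt1a (0.05), Acad10 (-0.08) and Acaa2 (0.62, adjusted p = 0.0578) were not called. Of the 4 probes of Acaa2, 2 were called higher. It was called with the mean over its probes (0.72, adjusted p = 0.017), with array weights (0.0213) and with the compared groups alone (0.00191). The day 10 arrays are shared by this comparison and the comparison of day 10 with control, so a fall in one and a rise in the other are not independent.

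The transcriptional regulators of the pathway were listed apart from the 33 genes, and 15 of 17 were tested. Of these 3 fell at day 2, 8 at day 3, 11 at day 10 and 1 at day 28, limma called no rise, and the median at day 10 was -1.05. The shares of all probes called lower at those times were 3.24%, 14.3%, 18.1% and 0.69%. Ppargc1a, the coactivator PGC-1 alpha, had 12.48, 11.28, 12.22, 10.32 and 10.35 in controls, 9.11, 9.81, 8.27 and 9.25 at day 2, and 8.18, 7.54 and 7.74 at day 3. It had 9.00, 9.44 and 9.94 at day 10 and 10.51, 11.05, 10.99 and 10.04 at day 28. It fell by 2.22 ± 0.37 (SE; adjusted p = 0.000463) at day 2 and 3.51 ± 0.40 (SE; adjusted p = 2.63e-07) at day 3, and from day 3 to day 10 it rose by 1.64 ± 0.45 (SE; adjusted p = 0.00575). Over that last interval 23 of the 30 fatty acid genes fell. Its controls spread over more than 2 log2 units, with controls 4 and 5 lowest.

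Esrra, estrogen-related receptor alpha, had 12.05, 11.77, 11.94, 11.67 and 11.57 in controls and 10.24, 10.70 and 10.91 at day 10, a fall of 1.19 ± 0.17 (SE; adjusted p = 5.64e-06), with no call at day 2 (0.09) or day 3 (-0.40). Esrrb, a related receptor, fell by 0.86 (adjusted p = 0.000127) at day 3 and 1.83 (adjusted p = 1.97e-09) at day 10. Rxrg, a retinoid X receptor and partner of PPAR, fell by 1.95 (adjusted p = 9.3e-08) and 2.27 (adjusted p = 6.39e-09), and Sirt3, the deacetylase of mitochondrial enzymes, by 1.02 (adjusted p = 0.000233) and 2.15 (adjusted p = 5.56e-09) at those times. Ppara, the receptor of the fatty acid response, differed from control by -0.46 at day 10 (adjusted p = 0.0466), after -0.02 at day 2 and an uncalled -0.35 at day 3. Ppara values overlapped between groups: 7.49, 7.29, 7.19, 6.53 and 6.78 in controls against 6.57, 6.67 and 6.57 at day 10.

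**Figure D4:**
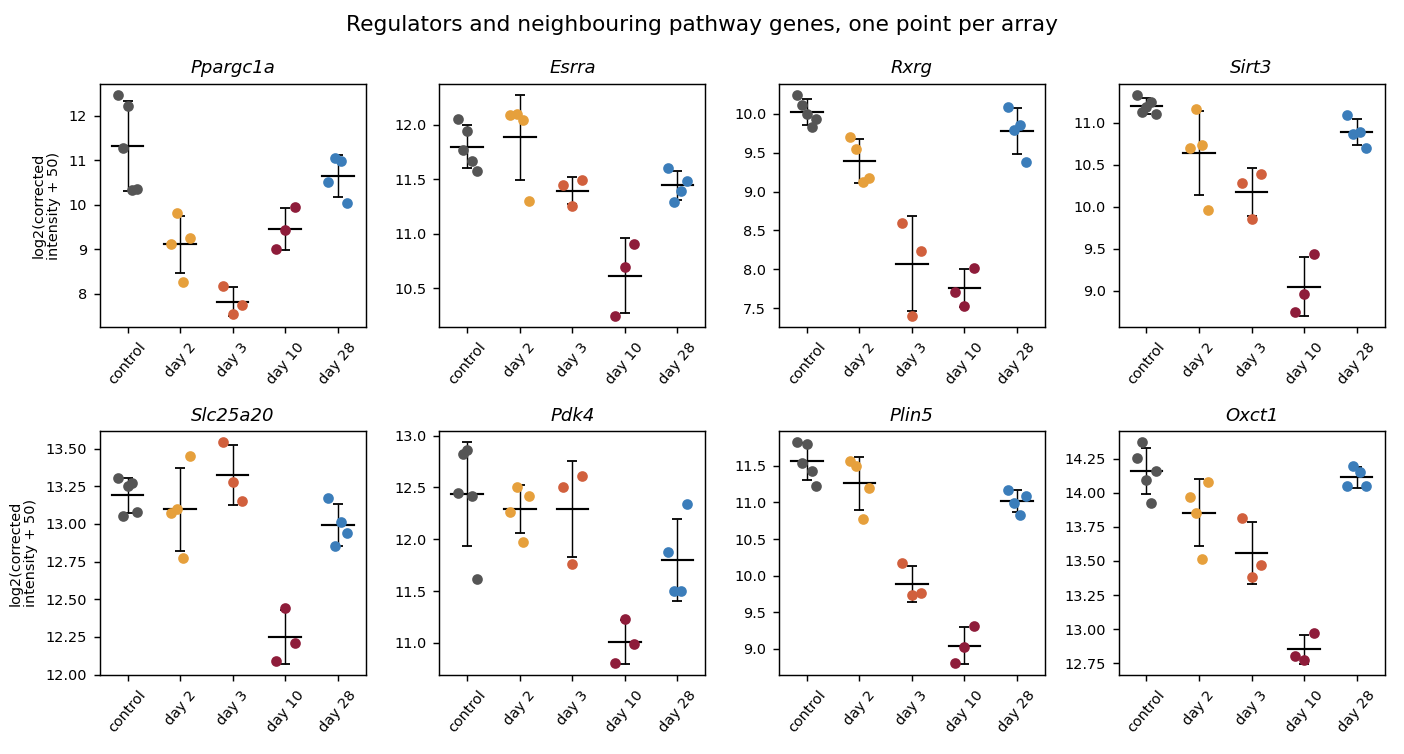
Level of 8 regulators and neighbouring pathway genes on log2(corrected intensity + 50) (vertical axes, each with its own range) in the 5 groups. Points are arrays, horizontal lines are group means and error bars are 1 SD. Ppargc1a is lowest at day 3 and higher again at day 10, whereas Esrra, Slc25a20, Pdk4 and Oxct1 are lowest at day 10.

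Neighbouring steps were listed in the same way. Among 14 tested genes of uptake, activation and transport outside the 33, 4 fell and 3 rose at day 10, with a median of -0.11, where 18.1% of all probes were lower and 17.7% higher. Slc25a20, the carnitine-acylcarnitine carrier between both palmitoyltransferases, had 12.09, 12.44 and 12.21 at day 10 below controls of 13.05 to 13.30, and fell by 0.94 ± 0.14 (SE; adjusted p = 7.94e-06). The lipoprotein receptor gene Vldlr fell by 1.98 (adjusted p = 4.01e-08) and lipoprotein lipase, Lpl, by 0.93 (adjusted p = 1.03e-06). Of 15 peroxisomal oxidation genes 6 fell and limma called no rise at day 10, with a median of -0.28, and Pex11a (-1.35), Acaa1a (-1.11) and Abcd3 (-1.10) had the smallest adjusted p. At day 3, 6 of these 15 fell and 2 rose, beside 14.3% of all probes lower and 14.1% higher.

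Of 8 other PPAR-responsive genes 5 fell and 2 rose at day 10, with a median of -0.84, where 18.1% of all probes were lower and 17.7% higher. The lipid droplet gene Plin5 fell by 2.52 (adjusted p = 1.48e-10), the triglyceride lipase gene Pnpla2 by 1.68 (adjusted p = 2.79e-09) and Cidea by 0.89 (adjusted p = 3.98e-06), Cidea after a rise of 0.62 at day 3 (adjusted p = 0.000511). Pdk4, the kinase that holds back pyruvate dehydrogenase, differed by -0.14 at day 2 and day 3 and fell by 1.42 ± 0.24 (SE; adjusted p = 3.67e-05) at day 10. All 3 tested genes of ketone body use, Bdh1, Oxct1 and Acat1, fell at day 10, by 1.62 (adjusted p = 0.000774), 1.31 (adjusted p = 5.3e-08) and 1.10 (adjusted p = 2.45e-07).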

How the data were processed

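Each of 19 left ventricular RNA samples was hybridised to Illumina bead arrays, and the deposited values are linear probe intensity. The authors deposited intensity that was already quantile-normalized: after sorting, the 19 columns held identical values (116.032 to 57814.4, median 191.479). The program and any background step are not given in the sources used here. A second table with 38 columns of laboratory codes that match no label was not used, so no detection calls were available.

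Background was corrected with normexp at an offset of 50 in limma 3.58.1 (R 4.3.3), log2 was taken and probes under the 25th percentile of mean intensity (162.92) were removed, which left 19272. Of 25697 probes 23978 had 1 gene symbol, 1719 none and 0 several, per the platform annotation, and 23962 were found in the RefSeq table (GRCm38.p6). Group means were estimated from all 19 arrays in 1 linear model (residual degrees of freedom 14, prior 9.66), with 2-sided moderated tests in 7 comparisons, Benjamini-Hochberg adjustment over the tested probes and calls at adjusted p under 0.05. The number of arrays limits the precision.

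All 33 members are named. Outside them the text names Ppara, Ppargc1a, Esrra, Pdk4, Slc25a20 and the 3 genes of each pathway list with the smallest adjusted p at day 10. Cell type markers are named as checks, and Angptl4, Acsl3, Acsl4 and Acsl5 were chosen after their values were seen. The members and lists were chosen with earlier results of these data known. Alternatives were background settings, filters, other fits and weights, other controls, other scalings, probe averaging, a 2-fold threshold and leaving out each array. Marker lists at day 10 gave 4 higher and 1 lower of 9 fibroblast, 0 higher and 4 lower of 8 endothelial, 2 and 2 of 7 smooth muscle and pericyte, 2 and 0 of 5 neutrophil, 0 and 1 of 3 erythroid, and 0 and 0 of 5 adipocyte genes. The shares of all probes at day 10 were 17.7% higher and 18.1% lower.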

Additional observations from a re-analysis of the deposited data

Results flagged for a closer look

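Of 90 groups of 4 or 5 arrays (30 genes in controls, day 2 and day 28), 4 held 1 array far from the others by Dixon's criterion, and chance alone picks out about 1 in 20 such groups. Slc22a5 at day 28 had 10.08 in replicate 2 and 10.36 to 10.41 in the others. Acadm in controls had 14.79 in replicate 5 and 14.97 to 15.05 in the others. At day 28, replicate 1 was high in Hadhb (14.70, others 14.49 to 14.51) and in Eci1 (13.64, others 13.40 to 13.43).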

How the results depend on the processing

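The direction of the median of the 30 genes was kept at day 2, 3 and 10 in every alternative run, and their call counts at day 10 stayed between 21 and 30. The count of 30 came with ubiquitous-gene centring, where 92.5% of all probes were called (35.8% in the main run). Counts against control at day 2 (3) were 1 with the compared groups alone, with controls 1 to 3 alone, with a 2-fold threshold and with ubiquitous-gene centring, and 1 to 5 over arrays left out: 1 without control replicate 4, 2 without day 2 replicate 3 and 5 without day 2 replicate 4. At day 3 (16) they were 4 at 2-fold and 9 with cardiomyocyte-marker centring, with 12 to 15 over arrays left out. At day 10, 28 to 29 genes were called over arrays left out. At day 28 (3) they were 8 with array weights, 5 with controls 1 to 3 alone, 0 with controls 4 and 5 alone (an alternative chosen after seeing the data), 1 at 2-fold and 9 with ubiquitous-gene centring. Of all probes 1.8% were called at day 28 in the main run, 8.21% with array weights and 6.06% with ubiquitous-gene centring. Over arrays left out the day 28 count was 2 to 5: 2 without control replicate 1, 2 or 3 or without day 28 replicate 2, 3 or 4, and 5 without control replicate 5. From day 2 to day 3 (11) the count was 4 with the compared groups alone, 18 with array weights, 0 at 2-fold and 3 with cardiomyocyte-marker centring, and 4 to 13 over arrays left out. Over that interval 18.7% of all probes were called in the main run and 29.4% with array weights. From day 3 to day 10 (23) the count was 11 at 2-fold and 22 to 24 over arrays left out, and from day 10 to day 28 it was 26 to 27.

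Medians with ubiquitous-gene centring were -0.64 at day 3, -2.35 at day 10, -0.39 at day 28, -0.54 from day 2 to day 3, -1.67 from day 3 to day 10 and 1.99 from day 10 to day 28. With cardiomyocyte-marker centring they were -0.24, -0.82, 0.077 (a change of sign), -0.10, -0.54 and 0.93. The centrings moved the median of all probes too, to -0.22, -1.04, -0.22, -0.27, -0.81 and 0.82 with the first and to 0.18, 0.49, 0.25, 0.17, 0.32 and -0.24 with the second. With the mean over a gene's probes the median from day 10 to day 28 was 1.08. Over arrays left out, medians ran from -0.25 to -0.04 at day 2, -0.53 to -0.38 at day 3, -1.41 to -1.27 at day 10, -0.21 to -0.15 at day 28, -0.41 to -0.23 from day 2 to day 3, -0.92 to -0.81 from day 3 to day 10 and 1.09 to 1.25 from day 10 to day 28. Cpt1a minus Cpt1b was -0.53 at day 2 and 2.12 at day 10 with controls 1 to 3 alone. At day 28 it became 0.19 without background correction, 0.20 with controls 1 to 3 alone and 0.079 with the mean over probes. Over arrays left out it ran from -0.84 to -0.64 at day 2, -0.43 to -0.20 at day 3, 1.60 to 2.13 at day 10 and -0.10 to 0.10 at day 28.

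With cardiomyocyte-marker centring the day 10 values of Cpt1a and Acad10 became 0.021 and 0.47, and with ubiquitous-gene centring Acad10 from day 10 to day 28 became 0.72. Of 3115 values of single members under alternatives, 86 lost a call, 46 gained one and these 3 changed sign with a call on either side. Apart from the recentred values, the cause of these changes was not tested. Same-numbered arrays did not deviate together (median residual r -0.0009 over 33 pairs, against -0.0026 over 110 pairs with different numbers). No pairing by number was seen, and the labels do not state whether the numbers mark a shared litter or day. With the replicate block the day 28 count was 5, beside 4.23% of all probes called (1.8% in the main run). Differences of dim genes (Cpt1a, Cd36, Acad10, Ucp3) and of Fabp3 are limited by background and by the top of the scale.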

Other observations

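Some genes of neighbouring steps moved against the 30 genes. They were chosen here after their values were seen. The secreted lipoprotein lipase inhibitor gene Angptl4, a PPAR target, had 8.08, 8.20, 8.02, 8.63 and 8.90 in controls, 9.07, 11.92 and 11.40 at day 3 and 10.15, 9.89 and 9.28 at day 10. It was 2.43 ± 0.39 (SE) higher at day 3 (limma adjusted p = 3.52e-05) and 1.41 ± 0.39 (SE) higher at day 10 (adjusted p = 0.0058), above all controls on every one of those arrays. Acyl-CoA synthetases activate fatty acids, and Acsl3, Acsl4 and Acsl5 were higher at day 10 by 0.63 (adjusted p = 0.000501), 0.70 (adjusted p = 0.000243) and 1.08 ± 0.17 (SE; adjusted p = 2.18e-05). Acsl5 had 9.78, 9.74, 9.72, 10.23 and 10.24 in controls and 11.34, 10.84 and 10.88 at day 10, without overlap. Macrophage markers were higher on the same day 10 arrays, and their part in these rises was not tested.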
